A study of Mus musculus with 5 samples.

Results

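The core loop of the circadian clock was followed here in mouse liver through 8 genes: the activators Arntl, Clock and Npas2 and the repressors Per1, Per2, Per3, Cry1 and Cry2. Its members were taken as every probe set whose single annotated gene symbol is one of these names, which gave 13 probe sets, out of 20380 with 1 symbol and 22690 on the array. Clock, Npas2 and Per2 have 2 probe sets each, Per3 has 3, and the other genes have 1. RNA came from livers of C57B/L mice that were 8 weeks old and had 2 weeks of maintenance before their feed began. The groups were an atherogenic diet for 10 weeks with atorvastatin during the last 3 weeks, the atherogenic diet alone for 10 weeks, standard chow for 10 weeks, the atherogenic diet for 1 week, and standard chow for 1 week. An atherogenic diet is a feed that raises blood cholesterol, and atorvastatin is a statin, an inhibitor of cholesterol synthesis. The livers of each group were pooled and hybridised to 1 array, so there are 5 arrays, no replicates, no test and no p-value, and the number of arrays limits the precision. The sources used here do not give the number of livers in a pool, the composition of the diet, the atorvastatin dose or the hour of day at which livers were taken. The 1-week diet sample is called chow in its source name but atherogenic in its title, description and protocols, and it was grouped by its title.

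In mammalian cells the proteins BMAL1 (made from Arntl) and CLOCK bind E-box sequences together and switch on the Per and Cry genes, whose proteins return to the nucleus and repress BMAL1 and CLOCK. A second loop is closed by REV-ERB and ROR nuclear receptors, which repress or activate Arntl through ROR response elements. In mouse liver the loop runs with a daily rhythm in which Arntl RNA is high when Nr1d1 (REV-ERB alpha) and Dbp RNA are low and the reverse, and feeding times can set its phase.

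Promoters were matched by symbol for 7 of the 8 members, all but Per2, as 11 windows of 250 bases before to 50 after a RefSeq start (GRCm38.p6). Both strands were searched for the E-box CACGTG, the E-prime box CACGTT, the D-box TTATGTAA or TTACGTAA (bound by DBP-type factors), the ROR element TAGGTCA or TGGGTCA, and the cAMP response element TGACGTCA, none of which overlapped another in the members. The runs below are shown because they hold every match found in the member windows, together with the match of Nr1d1 and that of Nfil3, whose signals are set beside the members further on. Windows of Nr1d2, Dbp, Tef and Hlf were also searched and are not shown. Tef held an E-box in each of its windows, Hlf a cAMP response element, and Nr1d2 and Dbp no match. Capitals mark the match, which in Cry2, Nr1d1, Nfil3 and the first match of Cry1 lies on the opposite strand.
Arntl: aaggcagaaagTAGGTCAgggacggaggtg
Nfil3: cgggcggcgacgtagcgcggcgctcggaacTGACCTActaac
Per1: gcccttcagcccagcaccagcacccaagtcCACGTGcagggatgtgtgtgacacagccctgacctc
Cry1: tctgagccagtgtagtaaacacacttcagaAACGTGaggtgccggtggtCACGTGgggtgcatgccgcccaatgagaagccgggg
Cry2: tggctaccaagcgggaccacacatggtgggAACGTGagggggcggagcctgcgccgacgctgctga
Nr1d1: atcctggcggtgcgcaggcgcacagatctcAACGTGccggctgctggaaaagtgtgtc
Per3: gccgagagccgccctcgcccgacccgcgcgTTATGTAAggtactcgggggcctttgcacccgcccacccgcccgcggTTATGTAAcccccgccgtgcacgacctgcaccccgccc

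These runs lie at chr7:113207530-113207559 (Arntl, plus strand), chr13:52981040-52981081 (Nfil3, minus strand), chr11:69098753-69098818 (Per1, plus strand), chr10:85185079-85185163 (Cry1, minus strand), chr2:92434200-92434265 (Cry2, minus strand), chr11:98775378-98775435 (Nr1d1, minus strand) and chr4:151044786-151044900 (Per3, minus strand). The ROR element of Arntl starts at base 31 after the second of its 2 annotated starts, and the window of the first start ends before it. Of all 32851 promoter windows, 6.45% held a ROR element, 7.15% an E-box, 4.68% an E-prime box, 1.06% a D-box and 1.79% a cAMP response element. In that order of motifs, these letters were found in 1, 2, 2, 1 and 0 of the 11 member windows, and in as many of the 7 genes searched. Per2 was not searched. A match is a description of the sequence only.

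Each value is a linear MAS5 signal, 1 for each probe set on each array, as the authors deposited it. Signals below 138.8, the 40th percentile of all signals, were treated as at the floor. A probe set counts as measured in a comparison when either of its arrays exceeds that floor, and a fold with the dimmer array at the floor is written as "at least". A ratio of at least 2-fold was counted as a difference. Between both chow arrays, which share their feed but not its duration or the age of the mice, the central 95% of 13639 probe sets lay between 1.93-fold lower and 1.99-fold higher at 10 weeks. Across quartiles of mean chow signal this range was widest at signals of 199 to 352, from 2.27-fold lower to 2.32-fold higher. Of the 13 member probe sets, 4 were above the floor on all 5 arrays (Arntl, both Clock probe sets and 1 of Per3), and 3 were above it on none (both of Npas2 and 1 of Per3). Signals of different probe sets are not compared with each other, since each probe set has its own brightness.

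In whole liver, fewer cells of a type and less RNA per cell cannot be told apart. The tissue label was borne out by 8 of 9 hepatocyte markers with a probe set, all above the floor on every array, with Alb between 28031 and 49348 on the diet arrays and at 69205 and 33063 on the chow arrays. Their summed signal was 197948 to 278253 on the diet arrays and 223961 to 381199 on the chow arrays, so the feeds overlapped. The 9 macrophage and Kupffer cell markers summed to 11713 to 21252 on the diet arrays, against 8368 on chow for 10 weeks and 13046 on chow for 1 week. The 6 endothelial markers summed to 2546 to 3665 on the diet arrays, against 1734 on chow for 10 weeks and 3283 on chow for 1 week. The stellate cell markers summed to 8466 to 9176 on the diet arrays, against 5844 on chow for 10 weeks and 10305 on chow for 1 week. Dcn alone gave 2838 and 6845 of these chow sums, and the median log2 ratio of the stellate markers between the chow arrays was -0.003. Of the biliary markers 3 of 4, and of the pancreas and fat markers 2 of 4, were at the floor everywhere. Chow for 10 weeks, the array with the highest Per1 signal, had the highest hepatocyte and the lowest macrophage, endothelial and stellate sums, and their part in the Per1 ratios was not tested. Arrays correlated with each other at a Spearman coefficient of 0.911 to 0.946 over all probe sets other than controls. The highest coefficient, 0.946, was that of diet and chow at 1 week, and the chow arrays had 0.927. The 18S ribosomal RNA control stood at 13944 on the atorvastatin array, against 437 to 2185 on the others.

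**Figure D1:**
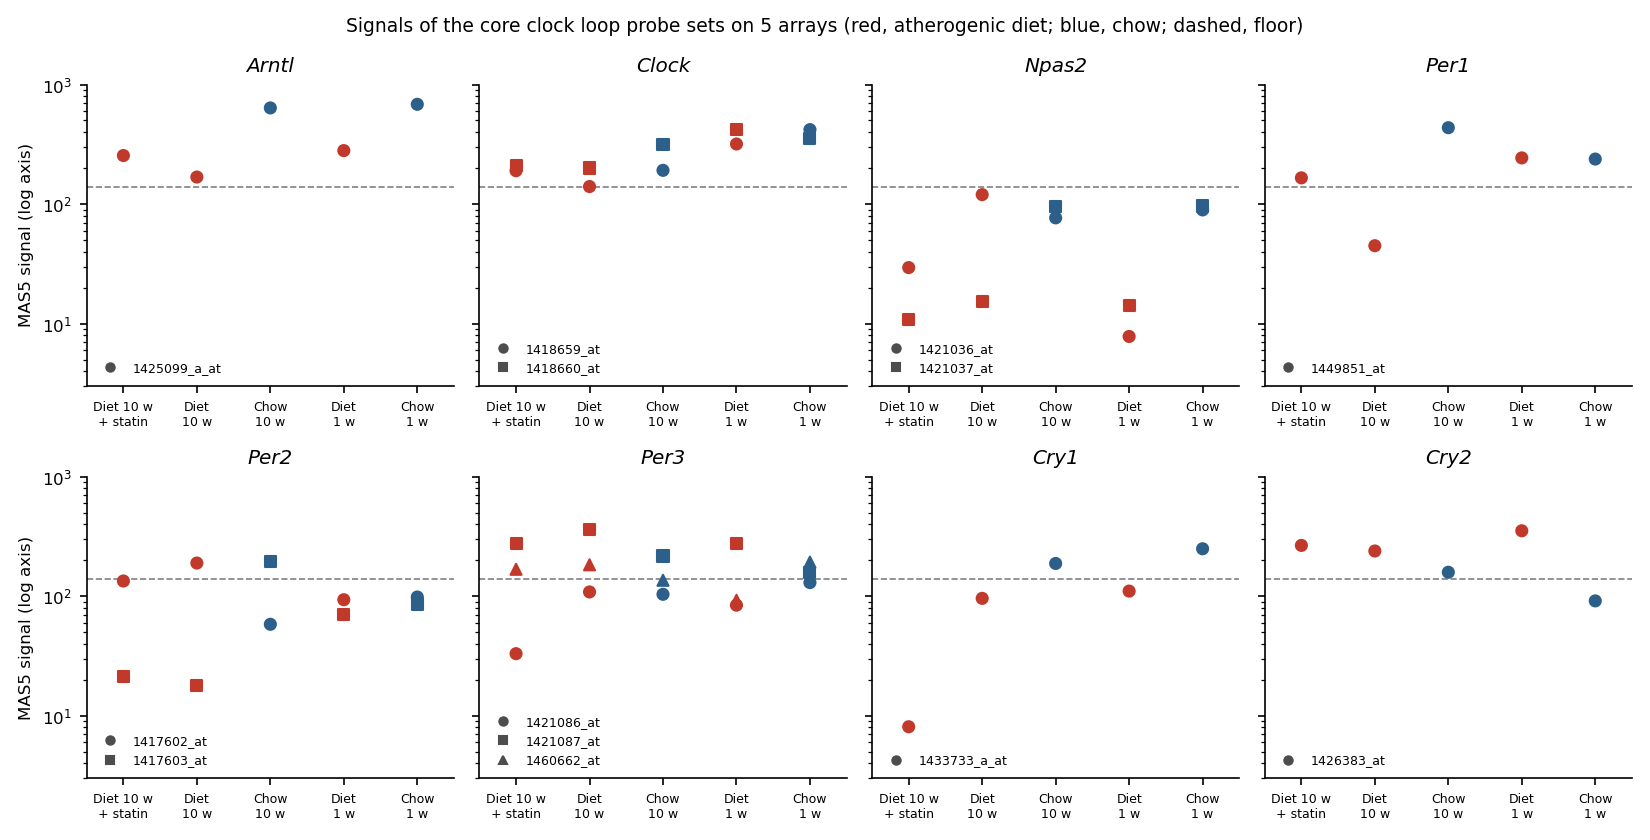
MAS5 signal (log axis) of each of the 13 member probe sets on the 5 arrays, 1 point per array, with red points for the atherogenic diet and blue points for chow; the dashed line is the floor of 138.8. Arntl lies lower on the diet arrays (168.2 to 279.9) than on the chow arrays (636.9 and 682.7). Both Npas2 probe sets lie under the floor everywhere.

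Arntl, which encodes BMAL1, the partner without which the loop does not run, was lower on every diet array than on either chow array. Its signal was 254.5 on the diet with atorvastatin, 168.2 on the diet for 10 weeks and 279.9 on the diet for 1 week, against 636.9 on chow for 10 weeks and 682.7 on chow for 1 week. The feeds did not overlap, and the lowest chow signal was 2.28 times the highest diet signal. Of 14933 probe sets above the floor on at least 1 array, 6.75% had all 3 diet arrays below both chow arrays, but only 2 (0.0134%) did so by at least 2-fold, Arntl and Pdk4, a pyruvate dehydrogenase kinase gene. The opposite order with a gap of at least 2-fold was found for 5 probe sets (0.0335%): both probe sets of Dbp, the Nr1d1 probe set, and those of Ngef and Afg3l1, the last pair of genes being named after their values were seen. Leaving out the 1-week diet array, whose labels conflict, the lowest chow signal of Arntl was 2.50 times the highest diet signal. The hour of day at which each pool was taken is not given. For Arntl, Dbp, Nr1d1 and Tef, feed and hour of day therefore cannot be told apart, and the part of either was not tested.

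In the order of Arntl levels, chow for 1 week stood above chow for 10 weeks by 1.07-fold, and chow for 10 weeks above the diet for 1 week by 2.28-fold. The diet for 1 week stood above the diet with atorvastatin by 1.10-fold, and the diet with atorvastatin above the diet for 10 weeks by 1.51-fold. Only the step between chow and diet is larger than the central 95% of the chow pair.

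Diet against chow at 10 weeks gave 2 of the 10 measured member probe sets past 2-fold, both lower, Arntl and Per1. Over all probe sets 7.07% were past 2-fold in this comparison, 3.44% lower and 3.63% higher. The median log2 ratio was -0.44 over the measured members and 0.05 over all probe sets. Arntl was 3.79-fold lower (log2 -1.92), the 26th lowest of 13853 ratios. Per1, a repressor that is also quickly induced by glucocorticoids and by cAMP signals, had a signal of 44.8 on the diet and 435.1 on chow, at least 3.13-fold lower. Its chow signal at 10 weeks was the highest of its 5 arrays. Set against the other chow array, that of 1 week, Per1 had a log2 ratio of -0.78 as a bound, inside 2-fold. Raising the floor to the 60th percentile gave -0.63.

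Diet against chow at 1 week gave 2 of 8 measured member probe sets past 2-fold, Arntl lower and Cry2 higher, against 2.94% of all probe sets in either direction, 1.61% lower and 1.34% higher. The median log2 ratio was -0.18 over the measured members and -0.03 over all probe sets. Arntl was 2.44-fold lower (log2 -1.29), the 61st lowest of 13182. With a pseudocount in place of the floor its log2 ratio was -0.97, just inside 2-fold. Cry2, a repressor of BMAL1 and CLOCK, had a signal of 353.2 on the diet and 91.5 on chow, at least 2.54-fold higher. That bound rests on a dim chow signal, and raising the floor to the 60th percentile gave 0.32 on the log2 scale. It also rests on the diet array whose labels conflict. Against chow at 10 weeks, Cry2 was 1.51-fold higher on the diet for 10 weeks and 1.68-fold higher with atorvastatin, both inside 2-fold. Each diet comparison has a chow array of its own, so Arntl was lower against a different array each time.

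**Figure D2:**
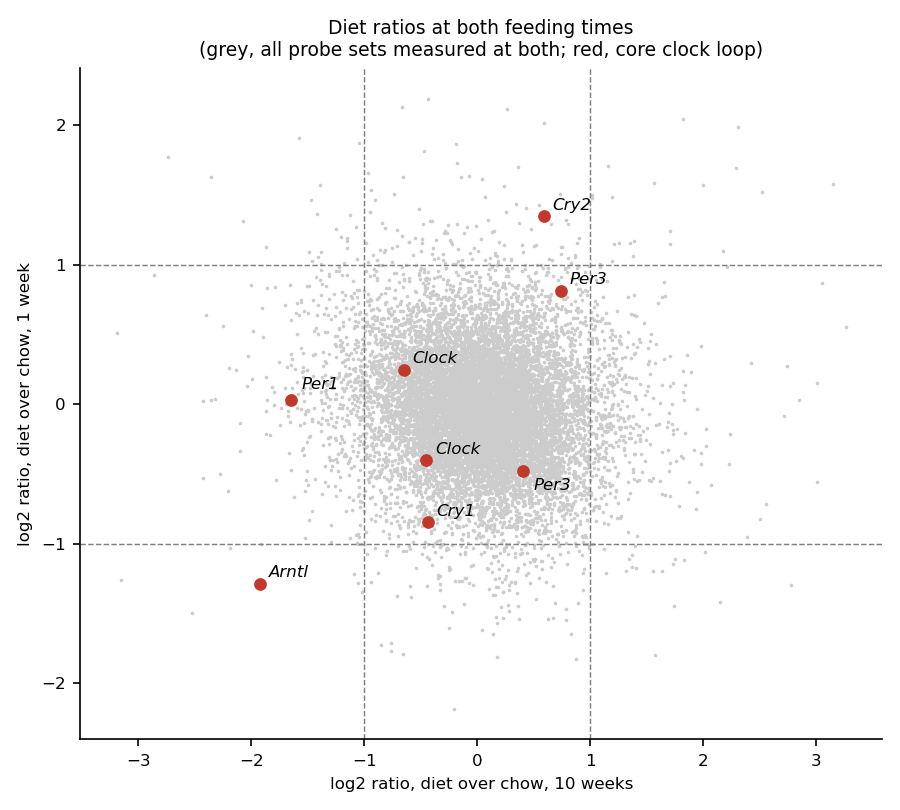
The log2 ratio of diet over chow at 10 weeks (x axis) and at 1 week (y axis) for every probe set measured in both comparisons (grey) and for the 8 such member probe sets (red, named), with dashed lines at 2-fold; ratios with 1 side at the floor are drawn at their bound. Arntl lies past 2-fold lower on both axes (-1.92 and -1.29), Per1 only at 10 weeks (-1.65) and Cry2 only at 1 week (1.35).

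Clock, the DNA-binding partner of BMAL1, is read by probe sets 1418659_at and 1418660_at, both above the floor on every array. Probe set 1418660_at had signals of 211.4 on the diet with atorvastatin, 200.2 on the diet for 10 weeks and 422.1 on the diet for 1 week, against 314.7 on chow for 10 weeks and 355.4 on chow for 1 week. Probe set 1418659_at had 190.0, 140.1 and 317.9 on the same diet arrays, against 191.4 and 419.2 on the same chow arrays. In both probe sets the feeds overlapped, and no step between neighbours in the order of levels reached 2-fold. The diet ratio was inside 2-fold at 10 weeks (log2 -0.65 and -0.45) and at 1 week (0.25 and -0.40). Set against the chow array of 1 week, the diet for 10 weeks had -0.83 with 1418660_at, inside 2-fold. With 1418659_at (140.1 against 419.2) it was past 2-fold lower. Between the diet arrays, 10 weeks against 1 week, Clock was lower by 2.11-fold with 1418660_at and 2.27-fold with 1418659_at, the 2 of 8 measured member probe sets past 2-fold there, against 10.2% of all probe sets in either direction and 4.86% lower. Raising the floor to the 60th percentile (log2 -0.58 with 1418660_at) or a pseudocount (-0.73) ended that call. On chow, 10 weeks against 1 week, probe set 1418659_at was 2.19-fold lower and 1418660_at 1.13-fold lower. That made 1 of 9 measured member probe sets past 2-fold on chow, against 4.63% of all probe sets in either direction, 2.19% lower and 2.44% higher.

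Npas2, which can take the place of CLOCK beside BMAL1, was not above the floor on any array with either probe set, so no fold is given. Probe set 1421037_at had signals of 10.8, 15.4 and 14.2 on the diet with atorvastatin, for 10 weeks and for 1 week, against 95.9 and 96.3 on chow for 10 weeks and 1 week. Probe set 1421036_at had 29.4, 119.9 and 7.8 on the same diet arrays, against 76.6 and 89.3 on the same chow arrays. All of these values are at the floor, where they have no order.

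Among the repressors, Per1 had signals of 165.6 on the diet with atorvastatin, 44.8 on the diet for 10 weeks and 243.2 on the diet for 1 week, against 435.1 on chow for 10 weeks and 237.8 on chow for 1 week. Its feeds overlapped, because the 1-week arrays differed by 1.02-fold. Chow at 10 weeks was 1.83-fold above chow at 1 week, which is within the central 95% of the chow pair.

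Per2, a repressor that holds the phase of the loop, was above the floor on 1 array with each probe set, and not on the same array. Probe set 1417602_at had 134.2, 189.7 and 93.6 on the diet with atorvastatin, for 10 weeks and for 1 week, against 58.3 and 98.6 on chow for 10 weeks and 1 week. Probe set 1417603_at had 21.5, 18 and 69.9 on the same diet arrays, against 197.0 and 86.2 on the same chow arrays. The probe sets disagreed in direction at 10 weeks, at least 1.37-fold higher with 1417602_at and at least 1.42-fold lower with 1417603_at, so no direction is given for Per2.

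Per3, which is thought to be less needed for the rhythm than Per1 and Per2, was brightest with probe set 1421087_at. That probe set had 277.2 on the diet with atorvastatin, 363.1 on the diet for 10 weeks and 278.9 on the diet for 1 week, against 217.3 on chow for 10 weeks and 158.6 on chow for 1 week. All diet signals stood above both chow signals, by 1.28-fold at the closest, and the diet ratio was 1.67-fold at 10 weeks and 1.76-fold at 1 week, both inside 2-fold. Set against the chow array of 1 week, Per3 on the diet for 10 weeks had a log2 ratio of 1.19, past 2-fold. Probe set 1460662_at had 168.2, 183.4 and 92.6 on the same diet arrays, against 136.1 and 193.2 on the same chow arrays, with the feeds overlapping. Probe set 1421086_at stayed under the floor, between 33.1 and 108.7 on the diet arrays and at 103.9 and 130.2 on the chow arrays.

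Cry1, the stronger repressor of the cryptochrome pair, had signals of 8.1 on the diet with atorvastatin, 96.1 on the diet for 10 weeks and 110.5 on the diet for 1 week, against 188.2 on chow for 10 weeks and 249.8 on chow for 1 week. It was above the floor on both chow arrays and on no diet array, by at least 1.36-fold at 10 weeks and at least 1.80-fold at 1 week. Cry2 went the other way, with 266.5, 239.2 and 353.2 on the same diet arrays, against 158.9 and 91.5 on the same chow arrays. The lowest diet signal of Cry2 was 1.51 times the highest chow signal. Over the 10 member probe sets above the floor anywhere, 2 had all diet arrays below both chow arrays (Arntl and Cry1) and 2 had them above (Per3 with 1421087_at, and Cry2), where 6.75% and 6.9% of all probe sets did so.

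**Figure D3:**
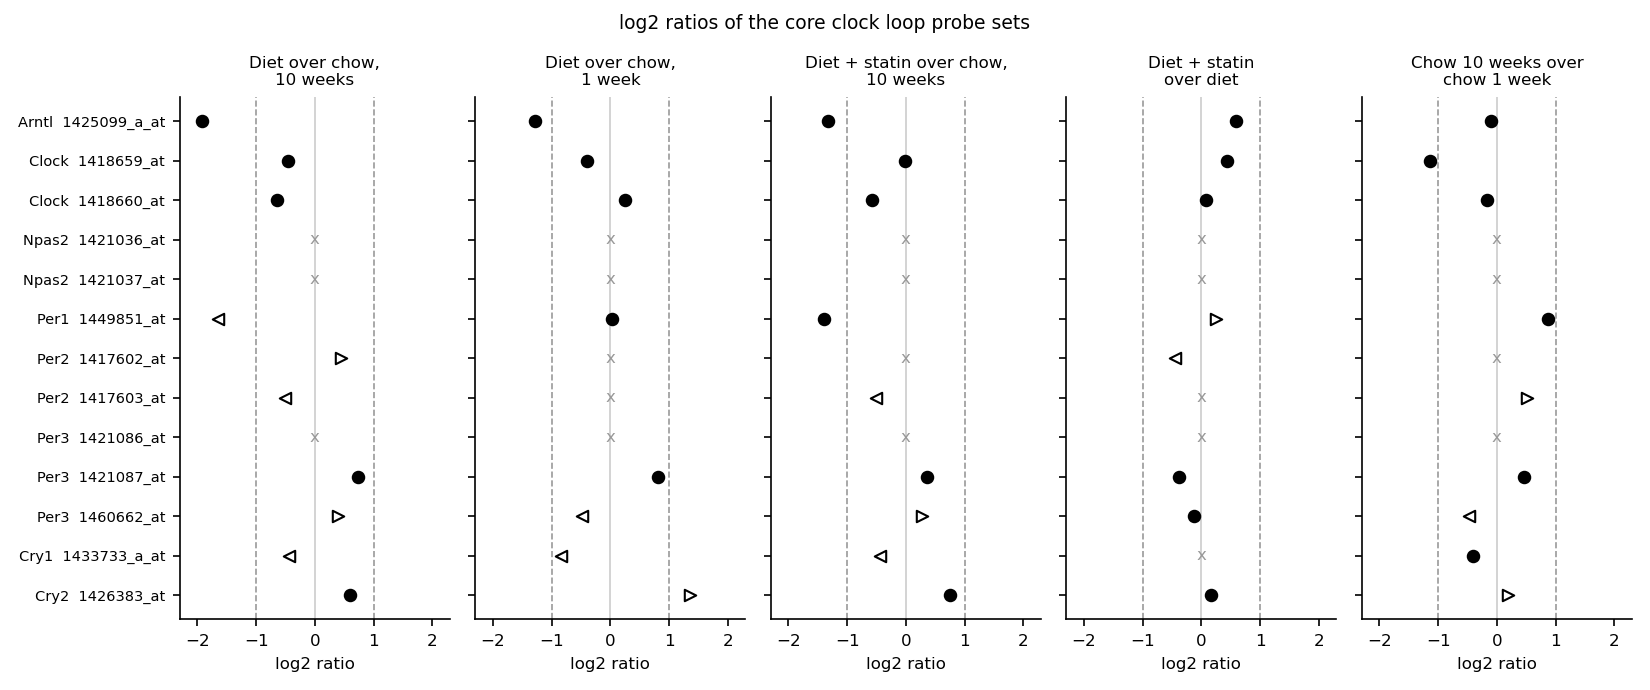
The log2 ratio of each member probe set (rows) in 5 comparisons (panels), with dashed lines at 2-fold; filled circles have both signals above the floor, open triangles are bounds pointing away from 0, and x marks probe sets at the floor on both arrays. Arntl is past 2-fold lower in all 3 panels that set a diet array over a chow array (-1.92, -1.29 and -1.32) and lies at 0.60 for atorvastatin over diet and -0.10 for the chow pair.

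Atorvastatin on the diet against the diet alone left 0 of 8 measured member probe sets past 2-fold, where 4.49% of all probe sets were past it, 2.22% higher and 2.28% lower. The median log2 ratio was 0.12 over the measured members and -0.02 over all probe sets. Arntl was 1.51-fold higher with atorvastatin (log2 0.60), and Clock had 0.44 with 1418659_at and 0.078 with 1418660_at. Per1 was at least 1.19-fold higher, and Per2 with 1417602_at at least 1.37-fold lower. Per3 had -0.39 and -0.12, and Cry2 had 0.16. With the floor at the 20th percentile Per1 was past 2-fold higher (1.78), since its signal on the diet alone was 44.8.

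Atorvastatin on the diet against chow at 10 weeks gave 2 of 9 measured member probe sets past 2-fold, Arntl (2.50-fold lower) and Per1 (2.63-fold lower), where 5.9% of all probe sets were past it and 2.85% were lower. The median log2 ratio was -0.44 over the measured members and 0.02 over all probe sets. Both calls ended with a pseudocount in place of the floor, at -0.98 for Arntl and -0.91 for Per1. With the mean of both chow arrays Per1 had -0.96. This comparison shares its chow array with the diet alone at 10 weeks, so they are not independent. Cry2 had 0.75, Per3 0.35 with 1421087_at, and Clock -0.57 and -0.01.

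Genes outside the core loop were read by their brightest probe set, and 31 of the listed genes have more than 1. Another probe set of the gene gave a different call past 2-fold for 7 of the 31 in diet against chow at 10 weeks, 2 at 1 week, 4 in each atorvastatin comparison, 7 between the chow arrays and 9 between the diet arrays. The second loop was read through 4 of its 5 listed genes, Nr1d1, Nr1d2, Rora and Rorb. Nr1d1, the gene of REV-ERB alpha, had signals of 771.6 on the diet with atorvastatin, 930.3 on the diet for 10 weeks and 1039.1 on the diet for 1 week, against 190.2 on chow for 10 weeks and 320.9 on chow for 1 week. The feeds did not overlap, and the ratio was 4.89-fold at 10 weeks and 3.24-fold at 1 week. At both times 2 of the 4 measured genes were past 2-fold higher and 0 lower, Nr1d1 and its paralog Nr1d2, where 3.63% of genes were higher at 10 weeks and 1.06% at 1 week. Nr1d2 was 2.31-fold higher at 10 weeks and 2.22-fold higher at 1 week with 1416958_at. Its other probe set, 1416959_at, was at least 1.69-fold higher at 10 weeks but at least 1.64-fold lower at 1 week, so the probe sets disagreed in direction at 1 week. The median log2 ratio of the 4 was 1.04 at 10 weeks and 0.92 at 1 week, where all genes had 0.05 and -0.03. Rora, an activator of Arntl, has 3 probe sets above the floor on all arrays, and they disagreed. At 10 weeks of diet 1424034_at, the brightest, had a log2 ratio of 0.71, 1420583_a_at was 2.47-fold higher and 1424035_at 2.27-fold lower. Between the chow arrays, at 10 weeks 1424034_at was 2.14-fold lower, 1420583_a_at 2.59-fold lower and 1424035_at 2.16-fold higher. No direction is therefore given for Rora, although its brightest probe set counts among the calls of the list.

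Of the D-box binding factors Dbp, Tef and Hlf and their repressor Nfil3, 2 of 4 measured were higher at 10 weeks of diet and 0 lower, and 1 was higher and 1 lower at 1 week. Over all genes 3.63% were higher and 3.07% lower at 10 weeks, and 1.06% higher and 1.25% lower at 1 week. Dbp was at least 8.87-fold higher at 10 weeks and at least 2.99-fold higher at 1 week. Tef had signals of 2230.3 on the diet with atorvastatin, 2258.6 on the diet for 10 weeks and 2153.1 on the diet for 1 week, against 1062.3 on chow for 10 weeks and 1089.4 on chow for 1 week. Its chow signals with this probe set, 1424175_at, lay within 1.03-fold of each other, and its diet ratios were 2.13-fold and 1.98-fold. With 1438033_at, which was at the floor on both arrays at 10 weeks, Tef was at least 1.28-fold lower on the diet at 1 week (100.9 against 178.1). Those probe sets thus disagreed in direction at 1 week. Nfil3, whose promoter window also holds a ROR element, had 73.1, 324.6 and 365.9 on the same diet arrays, against 511.4 and 1266.5 on the same chow arrays. It was 3.46-fold lower at 1 week and 1.58-fold lower at 10 weeks, and its chow arrays differed by 2.48-fold.

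The same shares of all genes apply to the lists that follow. Of 9 listed modifiers with a probe set, including the E-box competitors Bhlhe40 and Bhlhe41, 0 of 6 measured were past 2-fold at 10 weeks of diet and 0 of 8 at 1 week, with medians of -0.16 and 0.21. Of 7 genes for kinases, ubiquitin ligases and proteases that act on PER and CRY, 0 were past 2-fold at 10 weeks and 1 was lower at 1 week, Usp2, a ubiquitin protease (2.04-fold with 1417169_at). Its other probe set, 1417168_a_at, was 1.19-fold higher there. Their medians were -0.32 and -0.02. Of 11 liver genes known as clock outputs, 0 were past 2-fold at 10 weeks and 1 was lower at 1 week, Cyp7a1, which starts the conversion of cholesterol to bile acids (2.08-fold, and 4.54-fold with its other probe set), with medians of -0.46 and -0.31.

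The inducers of Per1 were read through 8 glucocorticoid-induced genes and 8 immediate early genes. Of the glucocorticoid-induced genes 1 was lower at 10 weeks of diet, Sgk1 (2.46-fold), and 1 at 1 week, Dusp1 (2.07-fold), with medians of -0.62 and -0.30. Of the immediate early genes, at 10 weeks Junb was higher (3.27-fold) and Egr1 lower (3.65-fold), and at 1 week Junb was higher (2.22-fold) and Fos lower (2.96-fold). Over all genes 3.07% were lower at 10 weeks of diet and 1.25% at 1 week.

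Among the same 7 lists, atorvastatin on the diet against the diet alone gave 1 gene past 2-fold higher, Egr1 (3.43-fold), and 1 lower, Nfil3 (at least 2.34-fold). Over all genes 2.17% were past it in each direction. In the order given above, the lists had 4, 4, 7, 7, 11, 8 and 8 genes measured here. They had as many in atorvastatin against chow and between the diet arrays. Between the chow arrays they had 4, 3, 8, 7, 11, 8 and 8. Calls of so few genes are not read as a result about the lists. Against chow at 10 weeks, Nr1d1 (4.06-fold), Dbp (at least 5.16-fold) and Tef (2.10-fold) were higher on the diet with atorvastatin, and Nfil3 (at least 3.68-fold), the gluconeogenesis gene Pck1 (2.03-fold) and the tyrosine aminotransferase gene Tat (2.06-fold) were lower, where 3.08% of genes were higher and 2.48% lower. Between the diet arrays, Dbp (2.97-fold, and 1.25-fold with its other probe set) and Bhlhe40 (2.04-fold) were higher and Egr1 (4.32-fold) lower at 10 weeks, where 4.85% of genes were higher and 3.69% lower. Between the chow arrays, the heme synthesis gene Alas1 (2.51-fold, and 1.18-fold with its other probe set) and the fatty acid elongase gene Elovl3 (2.32-fold) were higher at 10 weeks, and Fos (5.02-fold), Nfil3 (2.48-fold) and Usp2 (2.46-fold, and 1.13-fold with its other probe set) lower, beside Rora, whose probe sets disagreed, where 2.46% of genes were higher and 1.97% lower.

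Profiles over the 5 arrays were compared by the root mean square difference of centred log2 signals, over 6825 genes above the floor on all arrays. It was done for the 5 members above the floor on at least 3 arrays that span at least 1 on the log2 scale. The Arntl profile has a root mean square of 0.79. Nearest to it were Sgk1, a serum and glucocorticoid kinase (distance 0.24), Pdk4 (0.24), Safb (0.35) and the p21 gene Cdkn1a (0.35). Nearest to its mirror image were Junb (0.20), the lipid droplet coat gene Plin3 (0.25), the carotenoid oxygenase gene Bco2 (0.26) and Tef (0.33). Over the arrays Arntl spans 2.02 on the log2 scale and Tef 1.09.

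**Figure D4:**
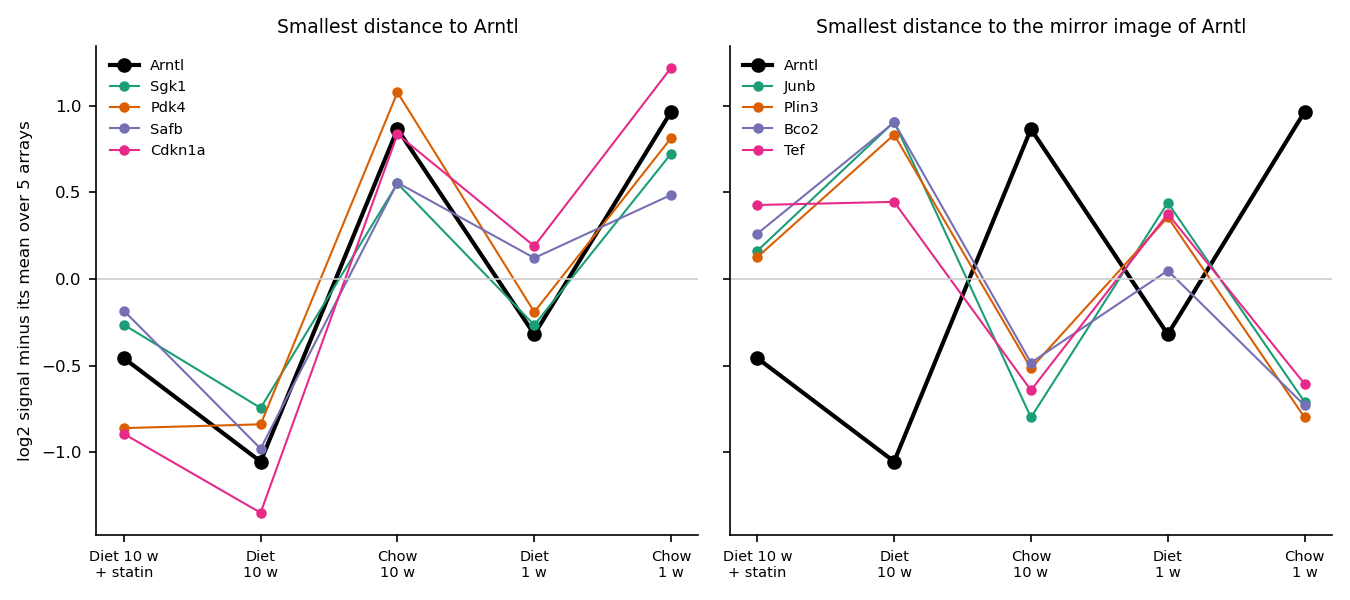
log2 signal minus its mean over the 5 arrays (y axis) by array (x axis) for Arntl (black) with the 4 genes nearest to its profile (left) and the 4 nearest to its mirror image (right), 1 line per gene. Sgk1, Pdk4, Safb and Cdkn1a share the low diet and high chow values of Arntl at distances of 0.24 to 0.35, and Junb, Plin3, Bco2 and Tef run the opposite way at 0.20 to 0.33.

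For Clock (profile 0.42) the nearest genes were Actr3, Tmx1, Erbin and Aldh9a1, at distances of 0.045 to 0.075, and the mirror image was nearest to Igtp, Adamdec1, Hsd17b2 and Itga2b, at 0.043 to 0.071. For Per1 (profile 0.57) they were Pnrc1, Cyp2c23, Suz12 and Tfb2m, at 0.085 to 0.10, and for its mirror image Adamts10, Tmem150a, Dpp7 and Sftpb, at 0.079 to 0.17. For Per3 (profile 0.40) they were Oard1, Eepd1, Upp2 and Acvr1b, at 0.065 to 0.094, and for its mirror image Dusp1, Cbr1, Ube2s and Arhgap5, at 0.092 to 0.11. For Cry2 (profile 0.49) they were C77080, Ascc1, Atg4d and Trib3, at 0.15 to 0.18, and for its mirror image Phospho2, Iqcf3, Nabp1 and Prxl2c, at 0.17 to 0.20. The floor of 138.8 stands in the Per1 profile for the diet for 10 weeks (44.8) and in the Cry2 profile for chow for 1 week (91.5). These profiles are therefore flattened at that array, while the genes set beside them were above the floor on all arrays.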

How the data were processed

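Biotin-labelled cRNA from pooled mouse livers was hybridised to 1 oligonucleotide array per group. The authors deposited linear intensities, made with MAS5 per the submitters' processing notes, as 1 value for each probe set on each array. The 2% trimmed mean was near 500.2 on every array, and arrays were rescaled to a common one. Signals were floored at the 40th percentile (138.8) and taken to log2. The 64 control probe sets, 691 probe sets with several symbols and 1555 others with no listed symbol were left out of the counts. Symbols come from the platform annotation, promoters from RefSeq tables. For a gene with several probe sets the brightest by mean log2 signal stands for it in lists and profiles. Since each group is 1 array and no test could be made, a 2-fold rule was used and each count is set beside the share of all probe sets or genes past it. All member probe sets are named, with list genes past 2-fold and the 4 nearest profiles; clone names were passed over. The 7 gene lists, the members and the rules were chosen with earlier results of these data known. The ratio and profile steps were tested on simulated data. The planted ratios were larger than those of the members, in probe sets brighter than most members, so dim calls near 2-fold were not covered. Alternatives were quantile normalization, the signals as deposited, cyclic loess, a lower floor (20th percentile), a higher floor (60th), a pseudocount equal to the floor, rules of 1.5-fold and 3-fold, leaving out x and s probe sets, the mean of all probe sets of a gene, and other chow arrays as reference. Python 3.11.15, pandas 2.3.3, scipy 1.17.1, R 4.3.3 and limma 3.58.1 were used.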

Additional observations from a re-analysis of the deposited data

Results flagged for a closer look

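At 3 of the 8 member probe sets measured at both feeding times the diet ratio had opposite signs at the 2 times, each from 1 pair of arrays. The difference between the times was not tested, and the share of all probe sets with opposite signs was not counted. Per1 had a log2 ratio of -1.65 at 10 weeks, a bound, and 0.032 at 1 week. Clock with probe set 1418660_at had -0.65 at 10 weeks and 0.25 at 1 week. Per3 with probe set 1460662_at had 0.40 at 10 weeks and -0.48 at 1 week, both bounds. Only the 10-week value of Per1 is past 2-fold, and its 1-week value is a difference of 1.02-fold, so no reversal is read from these signs.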

How the results depend on the processing

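No paired analysis was possible because each group is 1 array. The counts of member probe sets past 2-fold were 2 for diet over chow at 10 weeks, 2 at 1 week, 0 for atorvastatin over diet, 2 for atorvastatin over chow, 1 for the chow pair and 2 between the diet arrays, and they were the same with no rescaling, quantile normalization, cyclic loess and without x and s probe sets. In that order of comparisons, the floor at the 20th percentile gave 4, 4, 3, 6, 2 and 5. These were out of 13, 13, 11, 13, 13 and 12 measured, beside 16.1%, 8.71%, 13.2%, 14.7%, 12.5% and 18.1% of all probe sets. The floor at the 60th percentile gave 1, 1, 0, 1, 0 and 0. These were out of 4, 4, 1, 3, 4 and 4, beside 4.55%, 1.93%, 2.08%, 3.24%, 2.98% and 7.86%. The 1.5-fold rule gave 5, 4, 1, 3, 2 and 4 of 10, 8, 8, 9, 9 and 8 measured. Over all probe sets 25.9%, 16.2%, 20%, 23%, 20.7% and 32.3% were past it. The 3-fold rule gave 2, 0, 0, 0, 0 and 0 of the same numbers, beside 1.13%, 0.281%, 0.677%, 0.839%, 0.594% and 1.78%. A pseudocount gave 3, 1, 0, 2, 0 and 1 of the same numbers, beside 4.44%, 1.34%, 2.57%, 3.51%, 2.65% and 5.58%. The 2 for atorvastatin over chow were then Per2 and Cry1 (-1.07 and -1.15) in place of Arntl and Per1. With the mean of both chow arrays the diet at 10 weeks gave 3 of 10 (4.48% of all probe sets). The diet at 1 week gave 2 of 9 (2.27%) and atorvastatin over chow 1 of 9 (3.15%) with that mean. With the 1-week chow array the diet at 10 weeks gave 3 of 9 (6.64%). The causes of these shifts were not tested. A lower floor counts dimmer signals as measured, and over all probe sets it moved the share past 2-fold at 10 weeks of diet to 16.1%, against 7.07%. The limit for a shift was the standard deviation of the log2 ratios between the chow arrays, 0.49. Of 243 log2 ratios of member genes under alternatives, 217 moved by no more than that or kept their call. Of the others, 10 lost a call, 12 gained one, 4 moved by more than 0.49 and 0 changed the sign of a call. Arntl at 10 weeks of diet stayed past 2-fold lower in all 8 alternatives, between -2.02 and -1.17. Low signals and single arrays are the limit for Npas2, Per2 and Cry1.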
